A study of Mus musculus with 8 samples.

Results

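Bone morphogenetic protein (BMP) signalling was described through 10 genes, found by their symbol among 22717 features in all: the ligands Bmp2, Bmp4 and Bmp7, the receptor Bmpr1a, the target genes Id1, Id2, Id3 and Id4, the inhibitory Smad gene Smad6 and the secreted inhibitor Nog (noggin). All 10 were present in the tables of both days. The libraries are polyadenylated RNA profiles of 46C cells, mouse embryonic stem cells known for their fluorescent Sox1 reporter, with the strain given as C57BL/6. The groups, which all share the 46C background, were wild type (WT), LincNDIME_KO (here KO, a knockout of the long noncoding RNA NDIME by its name), shCtrl (control hairpin) and shMef2c (hairpin against the transcription factor gene Mef2c). Day 0 cells were stem cells kept on irradiated feeder fibroblasts with fetal bovine serum and leukemia inhibitory factor. Day 5 cells were ES-derived neural progenitors, obtained by re-aggregating stem cells in a medium containing knockout serum replacement. The sources used here do not give how the lines were made or the number of clones.

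BMPs are secreted dimers of the TGF-beta family that bind a pair of receptor kinases, among them the type I receptor Bmpr1a, which then phosphorylate Smad1, Smad5 or Smad9. With Smad4 these enter the nucleus and switch on genes such as the Id genes. Id proteins lack a DNA-binding region and pair with E proteins, which keeps those from working with the factors that drive neurons to form. In mouse stem cells grown with serum or BMP, Id proteins are known to hold back neural differentiation, and in the embryo noggin, chordin and related inhibitors shield the future neural plate from BMP.

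There was 1 library per group, so differences have no replicate check and no test over conditions, and the values describe these libraries alone. Estimated reads per library ran from 25996204 to 26834802 at day 5 and from 20312032 to 20883674 at day 0. Levels are FPKM at day 5 and RPKM at day 0, both per kilobase of gene length, and the tables of the days were made separately. A ratio is log2 of (level + 1) over (level + 1), a gene is past 2-fold when its ratio reaches that size, and only genes with a mean level of 1 or more over the pair are counted. Ratios of read shares carry exact (Clopper-Pearson) 95% intervals, which cover counting error only. Mef2c itself was at 0.45 FPKM in WT, 0.10 in KO, 0.50 in shCtrl and 0.12 in shMef2c at day 5. At day 0 it was at 0.16 RPKM in shCtrl (20 reads) and 0.37 in the library labelled shMef2c (44 reads), which goes against that label. Of 8 neural progenitor markers, all 8 were at 1 FPKM or more at day 5 in WT, KO and shCtrl but 4 in shMef2c, where Pax6 (0.21), Hes5 (0.57), Pax3 (0.86) and Dbx1 (0.30) were under that level. Fabp7 was at 11.6 FPKM in shMef2c and 30.0 in KO against 174 in WT and 233 in shCtrl, and Sox2, which stem cells also express, was at 98.4 to 118 FPKM at day 5 and 234 to 252 RPKM at day 0. The stem cell factor gene Pou5f1 remained at 131 to 433 FPKM at day 5. In bulk RNA, fewer cells of a type and less RNA per cell cannot be told apart.

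The upstream sequences of the Id genes are shown because they are the targets on which the results turn. Of the 10 members, 6 matched the RefSeq promoter table (build GRCm38.p6): Bmp4, Bmpr1a, Id2, Id3, Id4 and Smad6. Each sequence below is the 250 bases before the gene's start, 5′ to 3′ on the gene's strand, and capitals mark GGCGCC or GGAGCC, searched on both strands (GGAGCC reads GGCTCC on the other strand). These are GC-rich elements known to be bound by Smad1 and Smad5.
Id2 promoter (chr12:25096093-25096342, minus strand): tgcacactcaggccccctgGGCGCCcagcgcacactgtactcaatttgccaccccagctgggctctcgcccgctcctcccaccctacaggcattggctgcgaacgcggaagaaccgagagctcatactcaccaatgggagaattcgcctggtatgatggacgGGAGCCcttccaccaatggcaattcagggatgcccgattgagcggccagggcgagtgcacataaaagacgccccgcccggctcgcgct
Id3 promoter (chr4:136143572-136143821, plus strand): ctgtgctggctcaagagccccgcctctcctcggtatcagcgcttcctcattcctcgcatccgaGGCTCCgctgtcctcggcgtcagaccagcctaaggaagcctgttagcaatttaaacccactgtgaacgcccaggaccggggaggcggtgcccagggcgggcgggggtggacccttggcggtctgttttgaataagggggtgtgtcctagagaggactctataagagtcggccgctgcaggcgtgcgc
Id4 promoter (chr13:48260866-48261115, plus strand): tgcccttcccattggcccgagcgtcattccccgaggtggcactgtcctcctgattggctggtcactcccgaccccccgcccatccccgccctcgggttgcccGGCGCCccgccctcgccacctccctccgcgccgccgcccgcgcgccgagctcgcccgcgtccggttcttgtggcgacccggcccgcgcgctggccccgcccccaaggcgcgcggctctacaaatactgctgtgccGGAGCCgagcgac

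The Id2 window held 1 GGCGCC starting 231 bases before the gene's start and 1 GGAGCC at 88 bases. Id4 likewise held 1 of each, at 148 and 13 bases, while Id3 held only a GGCTCC, at 187 bases. All 6 matched members held at least 1 of the elements. Over 32851 promoters in the table, windows of the same length held GGCGCC in 9.59%, GGAGCC in 25.97% and either in 31.7%. The Id2, Id3 and Id4 windows were 62.8%, 62.8% and 75.6% G and C against a median of 52.4% over all promoters, and short GC-rich words are found more often in such sequence. A match is a description of these letters and not evidence of a bound site.

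Among the ligands, Bmp4 and Bmp2 had opposite courses between the days. Bmp4, a ligand made by the extraembryonic ectoderm of the early embryo, stood at 10.3 RPKM in WT, 13.5 in KO, 13.0 in shCtrl and 11.6 in the library labelled shMef2c at day 0. The day 5 levels were 2.03 FPKM in WT, 3.05 in KO, 1.59 in shCtrl and 4.66 in shMef2c. It was thus below every day 0 library in each day 5 library, and the perturbed lines kept more of it at day 5 than either control. Relative to the median gene, its day 5 to day 0 ratio was -1.92 in WT, -2.51 in shCtrl, -1.85 in KO and -1.12 in shMef2c on the log2 scale.

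In shMef2c at day 5, Bmp4 was higher than in shCtrl by 1.13 on the log2 scale, and it took 2.93 times the shCtrl share of reads (2.27 to 3.81). Against WT the same library gave 0.90, under 2-fold. In KO it was 1.501 times WT (1.17 to 1.93), a log2 ratio of 0.42, while shCtrl over WT gave 0.784 (0.581 to 1.05).

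Bmp2, a ligand of visceral endoderm and later of many dorsal tissues, was nearly absent from stem cells, at 0.43 RPKM in WT, 0.22 in KO, 0.31 in shCtrl and 0.28 in the library labelled shMef2c. By day 5 Bmp2 was at 2.17 FPKM in WT, 0.71 in KO, 4.52 in shCtrl and 5.05 in shMef2c. KO was the lowest day 5 library for Bmp2 by a wide margin, yet the controls themselves differed, with 2.09 times the share of reads in shCtrl (1.76 to 2.49). KO had 0.329 times the share of WT (0.246 to 0.437, 66 against 203 reads) and a log2 ratio of -0.89 with the pseudocount. Against shCtrl that ratio was -1.69. Between shMef2c and shCtrl the ratio of shares was 1.12 (0.976 to 1.28), an interval that holds 1.

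Bmp2 was also set beside visceral endoderm markers. Their summed level over 10 genes was 45.4 FPKM in WT, 131 in KO, 106 in shCtrl and 59.3 in shMef2c at day 5, and the members did not go one way. KO had the highest level for 5 of the 10 (Afp, Ttr, Apob, Cubn and Amn), with Afp, a secreted carrier protein gene, at 23.3 FPKM against 0.30 in WT. Rbp4, also a carrier protein gene, was at 22.9 in KO and 30.2 in shCtrl. Foxa2, an endoderm transcription factor gene that made up most of the WT sum, was lowest in KO, at 6.45 FPKM against 30.4 in WT, 37.4 in shCtrl and 30.6 in shMef2c. None of the 10 was at 0 in any day 5 library, and the part of these cells in the Bmp2 level was not tested.

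Bmp7, a ligand often found as a dimer with the others, varied least of the ligands at day 5. It was at 2.16 RPKM in WT, 3.32 in KO, 2.84 in shCtrl and 3.70 in the library labelled shMef2c at day 0, and at 4.16 FPKM in WT, 5.62 in KO, 6.06 in shCtrl and 6.26 in shMef2c at day 5. WT was the lowest library on both days. The KO to WT log2 ratio was 0.36 at day 5, smaller than the 0.45 between the control libraries, and against shCtrl it was -0.09.

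Shares were taken of the summed level of Bmp2, Bmp4 and Bmp7 alone. Bmp4 made up 79.9% in WT, 79.2% in KO, 80.5% in shCtrl and 74.5% in the library labelled shMef2c at day 0. At day 5 the largest share was that of Bmp7, at 49.8% in WT, 59.9% in KO, 49.8% in shCtrl and 39.2% in shMef2c. The Bmp2 share at day 5 was 25.96% in WT and 37.1% in shCtrl, against 7.57% in KO and 31.6% in shMef2c. Among these ligands the change of the leading one from Bmp4 to Bmp7 was therefore seen in all 4 lines. The Bmp2 share was lowest in KO among the day 5 libraries. Gdf3, a related ligand outside this sum, was above each of them in every library. It was at 64.9 to 103 RPKM at day 0 and 6.23 to 39.9 FPKM at day 5.

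**Figure D1:**
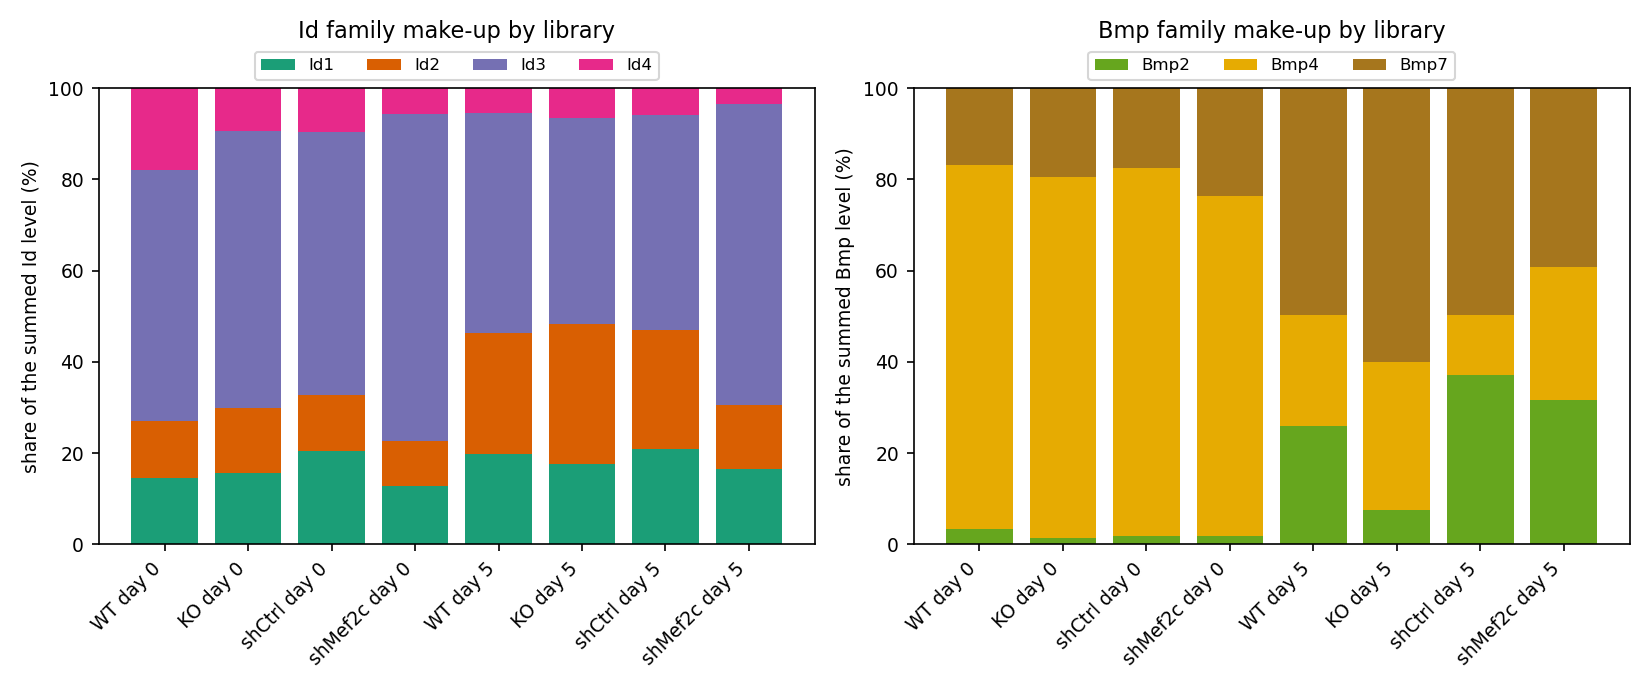
Shares of the summed level (%) taken by each Id gene (left) and by Bmp2, Bmp4 and Bmp7 among themselves (right). There is 1 stacked bar per library, day 0 in RPKM and day 5 in FPKM. Bmp4 leads at day 0 (74.5% to 80.5%) and Bmp7 at day 5 (39.2% to 59.9%), while Id3 is the largest Id share in every library.

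The receptor gene Bmpr1a, a type I receptor kinase, differed by less than 2-fold between any perturbed library and its control. At day 0 it was at 17.3 RPKM in WT, 20.4 in KO, 17.1 in shCtrl and 18.7 in the library labelled shMef2c. The day 5 level was 31.6 FPKM in WT, 27.2 in KO, 35.1 in shCtrl and 22.7 in shMef2c. Both perturbed lines were slightly above the controls at day 0 and below them at day 5. The share ratios at day 5 were 0.858 in KO against WT (0.822 to 0.896) and 0.646 in shMef2c against shCtrl (0.618 to 0.676), beside 1.11 between the controls (1.07 to 1.16).

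Bmp4 and Bmpr1a both lie on chromosome 14, where the median log2 ratio of KO over WT was below that over all genes. It was -0.28 over 436 genes at day 5 and -0.16 over 426 genes at day 0, against 0.0011 and 0.028 over all genes. The medians of the stretches around these members did not share that, and the 2 stretches overlap. In KO at day 5 the genes beside Bmpr1a were uneven. On one side, places -7 to -1 in gene order were at 0.56 to 2.63, and the other side was at -0.54 to 0.46. The 20 nearest counted genes (10 on each side) had a median of 0.15 around Bmp4 and 0.16 around Bmpr1a at day 5, and 0.14 and 0.23 at day 0. Around Bmp4 none of the 20 differed by 2-fold on either day. Around Bmpr1a 2 were higher at day 5 and 3 at day 0, and between the control libraries 1 was higher on each day. Over all genes 7.31% differed by 2-fold in KO at day 5 and 2.93% at day 0. Between the control libraries 0.996% did at day 5 and 1.27% at day 0.

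Among the Id target genes, Id1 and Id2 had the highest day 5 to day 0 ratios of the 10 members in WT on the scale with the pseudocount, while by level alone Nog (5.54 times) and Bmp2 (5.05 times) were above Id1 (4.59 times). Id1 stood at 8.05 RPKM in WT, 7.38 in KO, 11.7 in shCtrl and 10.7 in the library labelled shMef2c at day 0. At day 5 it stood at 36.9 FPKM in WT, 18.1 in KO, 49.4 in shCtrl and 22.3 in shMef2c. Every day 5 library was above every day 0 library, and both perturbed lines were well under both controls at day 5. Relative to the median gene the day 5 to day 0 ratio was 2.05 in WT and 1.91 in shCtrl on the log2 scale, against 1.18 in KO and 1.03 in shMef2c.

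At day 5 the Id1 share in KO was 0.490 times that in WT (0.434 to 0.552), and that in shMef2c was 0.450 times that in shCtrl (0.405 to 0.501). The log2 ratios with the pseudocount were -0.99 and -1.11, which put Id1 just short of the 2-fold line in KO and just past it in shMef2c. Against the other control library the sides changed, with -1.40 in KO over shCtrl and -0.70 in shMef2c over WT. Between the control libraries, shCtrl was at 1.35 times WT (1.23 to 1.47). The authors' deposited table puts Id1 at -1.03 (log2) in KO against WT and at -1.15 in shMef2c against shCtrl. Those are log2 ratios of the deposited levels without a pseudocount, and the table's own test compares pairs of libraries and not the conditions.

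Id2 had nearly equal levels in the 4 lines at day 0, at 6.90 RPKM in WT, 6.62 in KO, 6.93 in shCtrl and 8.26 in the library labelled shMef2c. By day 5 Id2 was at 49.8 FPKM in WT, 31.8 in KO, 61.7 in shCtrl and 19.1 in shMef2c. The order of the lines thus differed from that of Id1 and Id3, with shMef2c instead of KO at the bottom. Its share in shMef2c was 0.309 times that in shCtrl (0.282 to 0.338), a log2 ratio of -1.64 and the lowest of the 10 members in that comparison. In KO it was 0.637 times WT (0.589 to 0.690), a log2 ratio of -0.63.

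Id3 had the highest level per length of the 10 members in all 8 libraries. At day 0 it was at 30.6 RPKM in WT, 28.6 in KO, 33.0 in shCtrl and 60.5 in the library labelled shMef2c. At day 5 it was at 90.4 FPKM in WT, 46.6 in KO, 111 in shCtrl and 89.5 in shMef2c. At day 5 KO stood apart at the low end while shMef2c lay just under WT. Against WT the share in KO was 0.514 times as large (0.477 to 0.553, log2 ratio -0.94), and against shCtrl that in shMef2c was 0.801 times (0.756 to 0.849, log2 ratio -0.31). The control libraries differed by 0.30 on the log2 scale, and each of the 2 ratios of Id3 rests on a different one of them. Whether the 2 ratios differ was not tested.

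The high Id3 level at day 0 went with feeder cell markers. Its share in the library labelled shMef2c was 1.83 times that in shCtrl (1.66 to 2.02), and its log2 ratio of 0.86 lay at the 99.7 percentile of all genes in that pair. The summed level of 10 fibroblast markers was 223 RPKM in WT, 208 in KO, 229 in shCtrl and 374 in the library labelled shMef2c, with Col1a1, a collagen gene of fibroblasts, at 140 there against 86.5 in shCtrl. None of the 10 was at 0 in any library. The part of feeder cells in the Id3 level was not tested. At day 5 the same markers summed to 19.7 FPKM in WT, 19.7 in KO, 24.15 in shCtrl and 21.6 in shMef2c, well under the day 0 sums in each line.

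Id4, which is known for its part in neural progenitors, was the least abundant Id gene at day 5. At day 0 it was at 10.0 RPKM in WT, 4.38 in KO, 5.54 in shCtrl and 4.68 in the library labelled shMef2c. At day 5 it was at 10.2 FPKM in WT, 6.67 in KO, 13.9 in shCtrl and 4.59 in shMef2c. WT stood apart at day 0, and shMef2c and KO were the lowest at day 5. Id4 was the only member past 2-fold in KO against WT at day 0, where 1.58% of genes were lower by that size, with a log2 ratio of -1.03, but against shCtrl that ratio was -0.28, and shCtrl itself was at -0.75 against WT. In shMef2c at day 5 Id4 had 0.320 times the shCtrl share (0.274 to 0.372), a log2 ratio of -1.42. In KO it was 0.641 times WT (0.558 to 0.735).

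Summed over the family, the Id level was 187 FPKM in WT, 103 in KO, 236 in shCtrl and 135 in shMef2c at day 5. At day 0 it was 55.5 RPKM in WT, 47.0 in KO, 57.2 in shCtrl and 84.2 in the library labelled shMef2c. The day 5 sum was lower in both perturbed lines than in both controls, with a different make-up. In shMef2c, Id3 made up 66.1% of the sum and Id2 14.1%, while in KO these shares were 45.1% and 30.8%, close to the 48.2% and 26.6% of WT and the 47.1% and 26.1% of shCtrl.

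**Figure D2:**
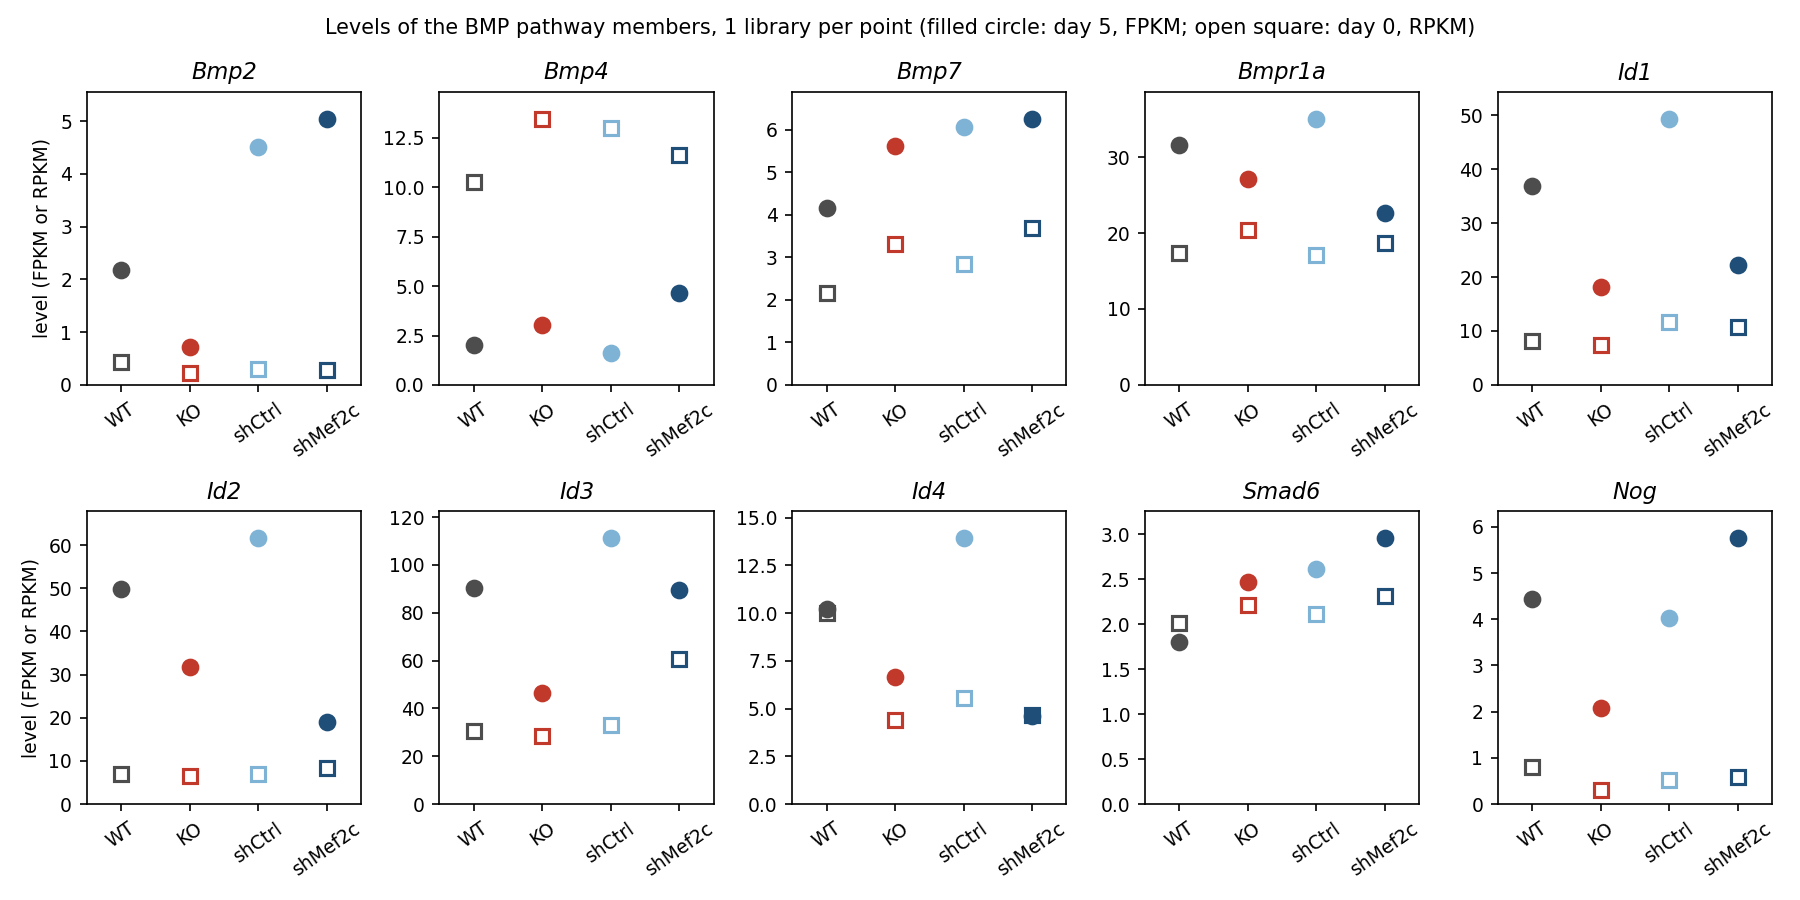
Levels of the 10 members, 1 panel per gene and 1 point per library, with filled circles for day 5 (FPKM), open squares for day 0 (RPKM) and linear axes from 0. Id1, Id2 and Id3 lie higher at day 5 than at day 0 in each line, Bmp4 lies lower (1.59 to 4.66 against 10.3 to 13.5), and Id1 in KO (18.1) and shMef2c (22.3) lies under WT (36.9) and shCtrl (49.4).

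Of the remaining members, Smad6, an inhibitory Smad gene that BMP itself induces, was within a narrow range. It was at 2.01 to 2.31 RPKM at day 0, and at 1.80 FPKM in WT, 2.47 in KO, 2.61 in shCtrl and 2.96 in shMef2c at day 5. The log2 ratio was 0.31 in KO against WT and 0.13 in shMef2c against shCtrl, both smaller than the 0.37 between the control libraries. Against shCtrl the KO ratio was -0.06. Unlike the Id genes, Smad6 was thus not lower in both perturbed libraries than in both controls.

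Nog, which encodes the BMP-binding inhibitor noggin, was scarce at day 0, at 0.80 RPKM in WT, 0.31 in KO, 0.53 in shCtrl and 0.58 in the library labelled shMef2c (12 to 32 reads). By day 5 Nog was at 4.43 FPKM in WT, 2.07 in KO, 4.03 in shCtrl and 5.76 in shMef2c. KO was the lowest library and shMef2c the highest, with the controls near each other. The share was 0.467 times WT in KO (0.365 to 0.594, log2 ratio -0.82) and 1.42 times shCtrl in shMef2c (1.18 to 1.72, log2 ratio 0.43), while the controls differed by a ratio of 0.914 (0.750 to 1.11).

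**Figure D3:**
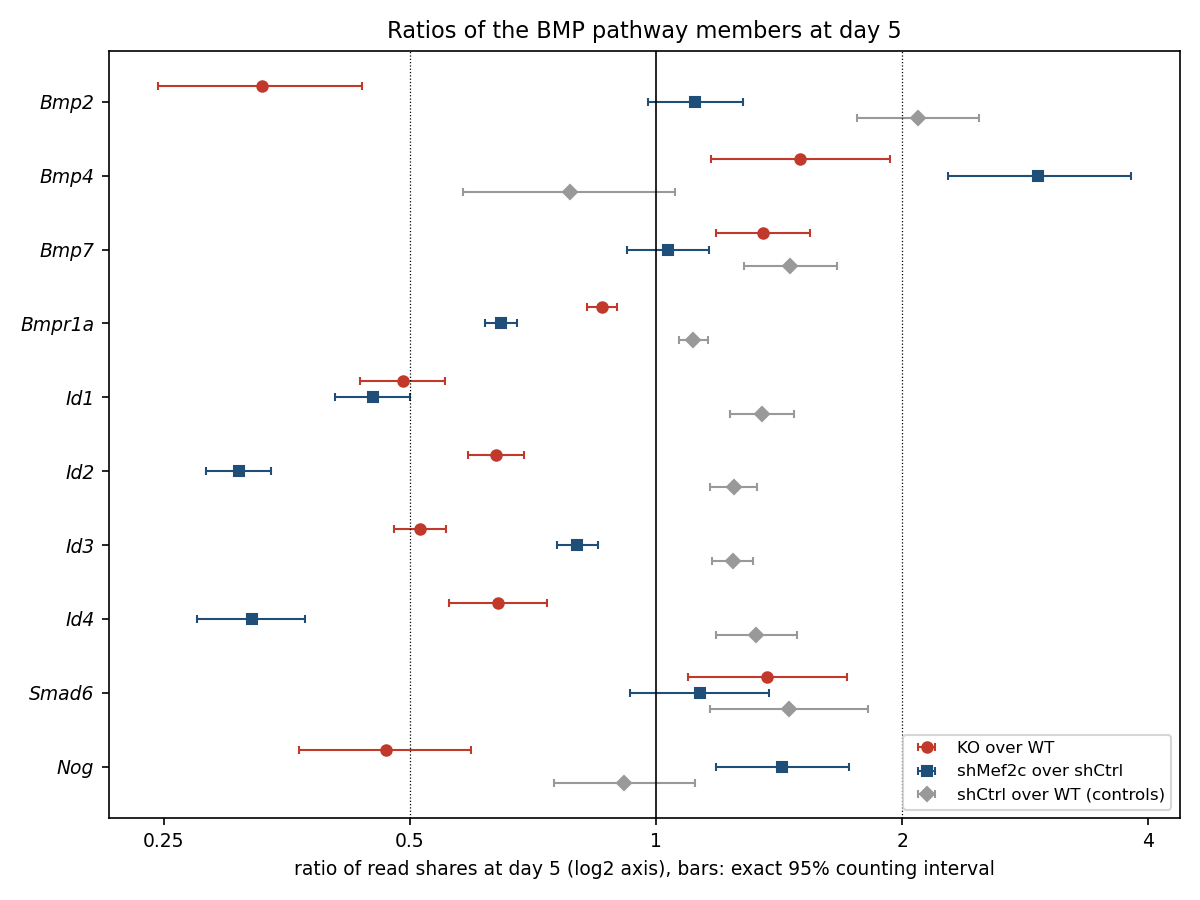
Ratios of read shares at day 5 for the 10 members on a log2 axis, with exact 95% counting intervals, for KO over WT (circles), shMef2c over shCtrl (squares) and shCtrl over WT (diamonds), and dotted lines at 2-fold. All 4 Id genes lie left of 1 in both perturbed lines and right of 1 between the controls, and Nog lies left of 1 in KO (0.467) and right of it in shMef2c (1.42).

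Counted together, KO and WT at day 5 had none of the 10 members past 2-fold, where 7.31% of 12832 genes were. Between shMef2c and shCtrl 4 of 10 were, against 9.26% of 13041 genes: Bmp4 was higher (4.49% of genes were) and Id1, Id2 and Id4 were lower (4.78% of genes were). Against the other control library, KO had 3 members lower (Bmp2, Id1 and Id3, where 5.52% of genes were) and shMef2c had 2 (Id2 and Id4, where 3.22% were). The median log2 ratio of the members was -0.59 in KO over WT and -0.14 in shMef2c over shCtrl, beside 0.0011 and -0.048 over all genes. Between the control libraries none of the 10 differed by that size at day 5, where 0.996% of genes did, and the median of the members was 0.33.

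The counts for KO over WT sit close to a threshold. The pseudocount makes ratios of low genes smaller, and with a pseudocount of 0.1, 3 members were past 2-fold. A smaller pseudocount also counts more of all genes, and that share is not given here. The authors' deposited table, which uses no pseudocount and lists 2253 genes past 2-fold, also holds 3: Bmp2 (-1.61), Id1 (-1.03) and Nog (-1.10). Neither count is read as a result about the members. Just short of the 2-fold line stood Id1 in KO at -0.99 and Id3 at -0.94, and just past it stood Id1 in shMef2c at -1.11 and Bmp4 at 1.13.

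At day 5 both perturbed libraries lay below both controls for 5 members (Bmpr1a, Id1, Id2, Id3 and Id4) and above both for Bmp4, a grouping looked at after the values were seen. Over all genes 30.9% lay below both and 26.3% above both, in total 57.2%, so 6 of 10 members is near the background. For Id3 the separation was between 89.5 in shMef2c and 90.4 in WT.

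At day 0 the largest log2 ratios against the own control among counted members were those of Id4 in KO (-1.03) and Id3 in the library labelled shMef2c (0.86). Bmp2 and Nog were under the mean level of 1 in all 4 libraries, so 8 members were counted. In KO against WT 1 of 8 was past 2-fold (Id4, lower, as 1.58% of genes were, and 2.93% in either direction). In the library labelled shMef2c none of 8 was past 2-fold against shCtrl, where 0.231% of genes were. Between the control libraries none of 8 was, where 1.27% of genes were.

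Between the days, 6 of 10 members passed 2-fold in WT (5 higher at day 5, 1 lower), 7 of 10 in shCtrl (6 higher, 1 lower), 4 of 9 in KO (3 higher, 1 lower) and 5 of 10 in shMef2c (4 higher, 1 lower). Over all genes 30% did in WT (15.3% higher, 14.7% lower), 30.6% in shCtrl (15.3% higher, 15.3% lower), 19.9% in KO (10.1% higher, 9.79% lower) and 18.9% in shMef2c (9.37% higher, 9.5% lower). Id1, Id2 and Nog were higher and Bmp4 lower in each of the 4 lines. Id3 passed 2-fold in WT (1.51) and shCtrl (1.65) and stood at 0.67 in KO and 0.59 in shMef2c. Bmp2 passed it in WT (1.13), shCtrl (2.00) and shMef2c (2.28) and stood at 0.47 in KO, where it was not counted because of its low mean. The pairs of days come from separate tables, so these ratios are descriptions.

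Among the other BMP inhibitors, KO had the lowest levels of Chrd and Cer1 and shMef2c the highest. Of 16 genes, 8 were counted in KO against WT, and 3 were lower and none higher, where 7.31% of all genes were past 2-fold in either direction. Chrd (chordin) stood at 6.62 FPKM in WT, 0.65 in KO, 7.81 in shCtrl and 11.7 in shMef2c. Cer1, a secreted inhibitor of BMP, Nodal and Wnt made by anterior endoderm, stood at 12.6 FPKM in WT, 0.14 in KO, 13.3 in shCtrl and 30.3 in shMef2c. In log2 ratios, Chrd was at -2.21 in KO and 0.53 in shMef2c, and Cer1 at -3.58 and 1.13.

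Fstl1, a secreted follistatin-like protein gene, was the third lower inhibitor in KO, at 19.9 FPKM against 58.8 in WT, with 74.0 in shCtrl and 55.7 in shMef2c. In shMef2c 2 of 11 counted inhibitors were higher than in shCtrl and none lower, where 4.49% of all genes were higher and 4.78% lower. These were Cer1, and Sost (sclerostin), at 2.45 FPKM against 0.12. The median of the list was -0.64 in KO and -0.18 in shMef2c, beside 0.0011 and -0.048 over all genes.

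Markers of the primitive streak and early mesoderm were, as a sum, lowest in KO and highest in shMef2c at day 5, as Nog, Chrd and Cer1 were. Their summed level over 8 genes was 51.0 FPKM in WT, 4.54 in KO, 48.6 in shCtrl and 144 in shMef2c at day 5. The highest of them in the other 3 libraries was T (brachyury), at 40.5 in WT, 36.55 in shCtrl and 106 in shMef2c, with Gsc next. In KO the highest was Eomes at 2.49, against 3.19 in WT. Mesp1 was at 0 in KO, but it was scarce in WT (0.11, 3 reads), shCtrl (0.30, 8 reads) and shMef2c (0.51, 14 reads) too. The markers did not all go one way. Hand1 (0.50 against 0.20) and Kdr (0.38 against 0.23) were low but higher in KO than in WT, and the others were lower. The part of these cells in the inhibitor levels was not tested.

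Of 16 other genes that BMP is known to induce, 11 were counted in each comparison. In KO 3 were higher than in WT and none lower, and in shMef2c 5 were higher than in shCtrl and 2 lower. Over all genes 7.31% were past 2-fold in either direction in KO, and 4.49% were higher and 4.78% lower in shMef2c. The medians of the list were 0.26 and 0.51, beside 0.0011 and -0.048 over all genes. Dusp9, a phosphatase gene that BMP induces in stem cells, stood at 12.1 FPKM in WT, 44.8 in KO, 11.97 in shCtrl and 37.3 in shMef2c. Tbx3, a transcription factor gene of stem cells and limb buds, stood at 0.86 in WT, 5.50 in KO, 0.85 in shCtrl and 5.59 in shMef2c, and Tfap2c at 3.52, 13.0, 4.28 and 23.7 in the same order. All 3 were higher in both perturbed lines, where all 4 Id genes were below their controls. The 3 were also expressed in the stem cells of day 0, at 17.1 to 31.9 RPKM (Dusp9), 60.1 to 113 (Tbx3) and 22.6 to 36.4 (Tfap2c). Smad7 is in this list and also in that of the Smad genes.

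Of 8 naive pluripotency markers, 5 were higher by 2-fold in KO and 8 in shMef2c. Over all genes 7.31% were past 2-fold in either direction in KO, and 4.49% were higher in shMef2c. Their summed level over 8 genes, of which Tbx3 is 1, was 300.1 FPKM in WT, 597 in KO, 221 in shCtrl and 822 in shMef2c at day 5, with none at 0. Neural progenitor markers summed to 386 FPKM in WT, 179 in KO, 457 in shCtrl and 144 in shMef2c. Among the members, Id2, Id4 and Bmpr1a had that order of groups. Sox2, which stem cells also express, made up 98.4 FPKM of the sum in WT, 104 in KO, 103 in shCtrl and 118 in shMef2c. The part of either population in these levels was not tested. Krt18, a keratin gene of simple epithelia, was 1 of the 2 lower induced genes in shMef2c, at 84.2 FPKM against 224 in shCtrl, with 80.0 in WT and 94.6 in KO. Atoh8 was at 0.73 in KO against 2.24 in WT, a log2 ratio of -0.91.

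Of the 10 other receptor and co-receptor genes, 8 were counted in each comparison. Rgma, a co-receptor of neural tissue, was lower in both lines, at 31.9 FPKM in WT, 14.7 in KO, 35.2 in shCtrl and 9.91 in shMef2c. Eng (endoglin) was higher in both, at 1.93 in WT, 5.60 in KO, 1.48 in shCtrl and 6.86 in shMef2c. In shMef2c Rgmb (3.72 against 11.2) and the type I receptor Bmpr1b (0.43 against 1.86) were lower too, so that list had 1 higher and 1 lower in KO (7.31% of all genes in either direction) and 1 higher and 3 lower in shMef2c (4.49% and 4.78% of all genes). Bmpr1b in KO was at 0.45 against 1.79 in WT, a log2 ratio of -0.94. In shMef2c its log2 ratio was -1, right on the 2-fold line, so its being counted in 1 line alone rests on a small difference.

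Of the 9 Smad and Smad ubiquitin ligase genes, 8 were counted. With the pseudocount, none was past 2-fold between KO and WT, and Smad7 alone was between shMef2c and shCtrl. Over all genes 7.31% and 9.26% were, in either direction. Smad7, an inhibitory Smad gene like Smad6, was at 2.80 FPKM in WT, 5.96 in KO, 2.48 in shCtrl and 7.61 in shMef2c. Without the pseudocount, Smad7 in KO was at 2.13 times WT. The log2 ratio of Smad7 with it was 0.87 in KO and 1.31 in shMef2c, while Smad5, which carries the BMP signal, was at -0.43 and -0.57. Of the 13 other ligand genes 2 were counted in each comparison, and Gdf3, a ligand of stem cells and epiblast, was higher in shMef2c at 39.9 FPKM against 6.23, with 24.1 in KO against 12.7 in WT.

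Of the 3 E protein genes, whose products Id proteins bind, Tcf12 alone was lower by 2-fold. Tcf12 was at 76.3 FPKM in WT, 32.1 in KO, 65.0 in shCtrl and 31.0 in shMef2c, past 2-fold in both lines, with log2 ratios of -1.23 and -1.04. Over all genes 7.31% were past 2-fold in either direction in KO, and 4.78% were lower in shMef2c. Tcf3 was at 76.9, 66.3, 73.6 and 61.4 and Tcf4 at 10.1, 8.21, 11.1 and 7.16 in the same order of lines. The summed Id level over the summed level of the 3 E protein genes was 1.15 in WT, 0.969 in KO, 1.58 in shCtrl and 1.36 in shMef2c at day 5. The E protein sum and the Id sum were thus both lower in the perturbed lines, and this quotient differed more between the controls than between either perturbed line and its control.

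**Figure D4:**
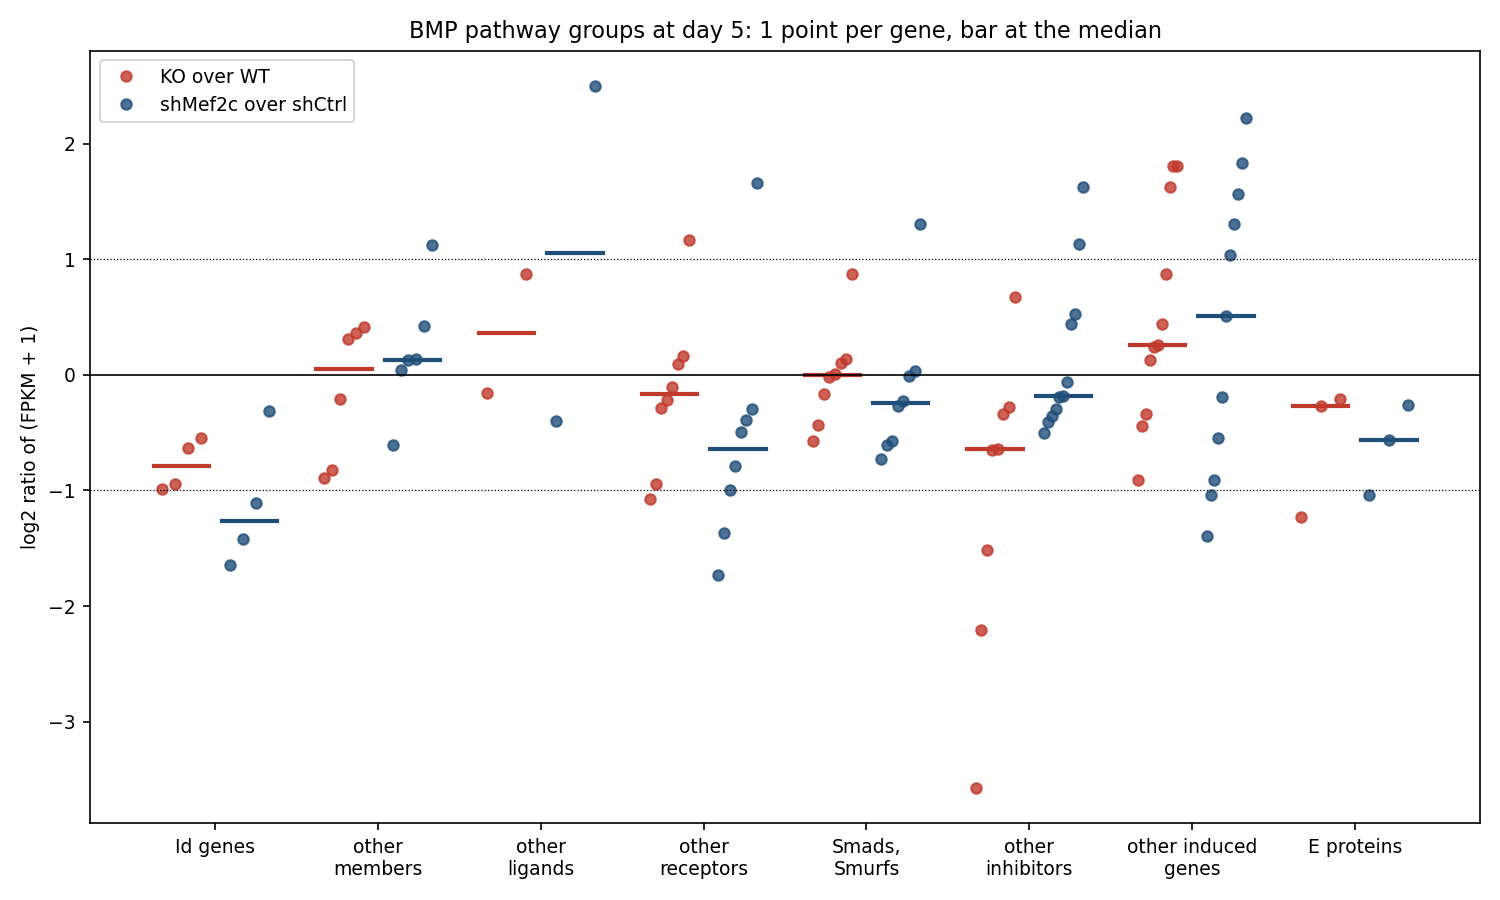
Log2 ratios of (FPKM + 1) at day 5 for each counted gene of the BMP pathway groups, 1 point per gene, KO over WT in red and shMef2c over shCtrl in blue, with bars at the medians and dotted lines at 2-fold. All 4 Id genes lie below 0 in both comparisons, other induced genes reach 1.81 (Dusp9 in KO) and 2.23 (Tfap2c in shMef2c), and Cer1 is the lowest point at -3.58 in KO.

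By the root mean square difference of log2(level + 1), centred within each day over the 8 libraries, the genes whose pattern was most like that of Id1 among 7456 were Hes6 (0.083), Cd24a (0.11) and Stmn2 (0.11). Hes6, a neural basic helix-loop-helix gene, was at 38.8 FPKM in WT, 17.3 in KO, 49.7 in shCtrl and 22.4 in shMef2c at day 5, near the Id1 levels of that day. For Id3 the nearest were Itm2b (0.11), Efemp2 (0.15) and Azin2 (0.16). Bmp4 was under the mean level of 5 at day 5 and was not compared. Likeness over 8 libraries is a description and nothing is drawn from it.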

How the data were processed

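The members, gene lists and comparisons were chosen with earlier results of these data known. Day 5 files hold, as deposited by the authors, an expected count (estimated reads) and an FPKM value per gene, per the file headers. Genes absent from a file (the lowest FPKM listed is 0.01) count as 0. Day 0 values came in 1 deposited table with an RPKM value and an estimated count per gene and library, per the file headers. Their deposited day 5 comparison tables give log2 ratios and false discovery rates (adjusted p-values) from a Poisson method on reads of 2 libraries, per the labels. Tools named in the submitters' processing notes, with no role or version, are RSEM, HISAT, Bowtie, HISAT2 and Bowtie2, and the build is mm9. The sources used here do not give strand use in counting.

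Features were joined by gene identifier (21069 at day 5, 19011 at day 0, 17363 in both). Ratios used a pseudocount of 1 and genes whose pair mean reached 1, and ratios between days were centred on the median gene. With 1 library per group there was no test. Named genes are the 10 members, Mef2c, up to 4 genes per pathway list with the largest ratio in each day 5 comparison, the 2 highest genes of a marker list, and the 3 genes most like Id1, Id3 and Bmp4. Some marker genes outside that rule were added after their values were seen. These are Mesp1 (at 0 in KO), Pax6, Hes5, Pax3 and Dbx1 (under 1 FPKM in shMef2c), and Ttr, Apob and Cubn (highest in KO). A gene that the rule names is not reported here. For the alternatives, estimated counts were rounded and scaled by TMM factors (edgeR 4.0.16) or size factors (DESeq2 1.42.0). Promoters and gene order came from RefSeq tables of GRCm38.p6, which differs from mm9, so no coordinates of the deposited files are given. The ratio script was tested on simulated data.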

Additional observations from a re-analysis of the deposited data

Results flagged for a closer look

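Among the 10 members and the pathway genes named for the size of their ratio, 5 went opposite ways in the 2 perturbed lines at day 5, with the counting intervals of both ratios of read shares off 1. Genes outside that set, such as the marker genes T and Gsc and the pathway gene Krt8, also went opposite ways and are not counted. With 1 library in each group the difference itself was not tested. Given as the log2 ratio of KO over WT minus that of shMef2c over shCtrl, it was -1.25 for Nog, -1.41 for Atoh8, -4.71 for Cer1, -2.73 for Chrd and 1.64 for Krt18. Nog, Cer1 and Chrd, which encode secreted BMP inhibitors, and Atoh8 were lower in KO and higher in shMef2c than in their controls. Krt18 was slightly higher in KO (0.24) and lower in shMef2c (-1.40). Its level in shCtrl (224 FPKM) stood apart from WT (80.0), KO (94.6) and shMef2c (84.2), and shCtrl over WT was at 1.47. Against WT, Krt18 in shMef2c was slightly higher, so its opposite directions depend on the control library used. Of the 5 genes, Nog is the one among the 10 members.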

How the results depend on the processing

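Of 627 recomputed ratios of single members, 579 stayed within their counting error, 48 moved by more, and none that had passed 2-fold changed sign. Counts of members past 2-fold are listed where they changed by more than 1.5 times, or from or to 0. Smaller changes also occurred and are not listed. For KO over WT at day 5, the count of 0 became 3 with a pseudocount of 0.1, 1 with values rescaled to TPM, 1 with TMM-scaled counts, 1 with DESeq2 size factors, 5 at 1.5-fold, 3 against the other control library and 3 in the authors' deposited table. For shMef2c over shCtrl at day 5, 4 became 2 against the other control library. At day 0, KO went from 1 to 0 against the other control library, and the library labelled shMef2c from 0 to 1 at 1.5-fold. Between the controls, 0 became 1 with a pseudocount of 0.1 and 1 at 1.5-fold at day 5, and 1 at 1.5-fold at day 0. Between the days in shMef2c, 5 became 3 with a mean of 5 or more, since 5 members were then counted. Lower folds and smaller pseudocounts count more genes by their construction, and for the other settings the cause was not tested. For most settings the share of all genes past the line is not given here, so nothing about the members is drawn from these counts. Of 468 recomputed counts of the pathway lists, 383 stayed within 1.5 times. Signs of ratios under 2-fold turned for Bmp7 and Smad6 in KO at day 5 and for Bmp4 and Id1 in the library labelled shMef2c at day 0 (other control library), Bmp7 in shMef2c at day 5 (TPM), Id2 between controls at day 0 (TPM, TMM and DESeq2) and Id4 between days in shMef2c (not centred). No paired analysis was possible because each group has 1 library and the labels give no replicate numbers. Bmp2 and Nog at day 0 rest on 12 to 32 reads, which limits their ratios.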
